A study of Mus musculus with 158 samples.

Results

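The CCAAT/enhancer-binding protein (C/EBP) loci are the genes Cebpa, Cebpb, Cebpd, Cebpe and Cebpg with 50 kb of flanking sequence on each side, which are 5 of 21755 protein-coding genes of the mouse annotation. The members were chosen by name, as the paralogs of one transcription factor family. Accessible chromatin was mapped by DNase-seq, in which open DNA is cut by DNase I and the cuts are sequenced. A DHS hotspot is a stretch where cuts were enriched over the local background. Tissues came from untreated F1 mice at 8 weeks of age with no engineered allele, all with a C57BL/6J mother. The father was C3H/HeJ in B6xC3H, SPRET/EiJ in B6xSPRET, PWK/PhJ in B6xPWK and CAST/EiJ in B6xCAST, and B6x129 had a father of the strain its name gives. Liver, kidney and lung were whole organs, usually pooled from several mice, and B cells came from femoral marrow of female mice after depletion of cells carrying CD43 or Mac-1/CD11b. Hotspots had been called once per hybrid and tissue on pooled libraries, which gave 20 adult sets from 138 libraries, and B6xCAST embryonic stem cells (mESC) gave 1 DNase-seq set and 1 set for the insulator protein CTCF. The hybrids therefore served as the 5 repeats of a tissue, and no spread within a hybrid and tissue could be measured. RNA-seq of the same tissues was available for 17 samples.

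C/EBP proteins are basic leucine zipper factors that bind DNA as homodimers or as heterodimers with each other. C/EBPα maintains hepatocyte and adipocyte gene programs and is needed for granulocyte development. C/EBPβ and C/EBPδ are induced in acute inflammation and early in fat cell differentiation, and C/EBPε acts late in granulocyte maturation. C/EBPγ lacks a strong activation domain of its own and pairs with the other members and with ATF4.

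In the mm10 assembly, Cebpa lies at chr7:35119293-35121928 on the plus strand and Cebpg at chr7:35046422-35056573 on the minus strand. Their starts are 62.7 kb apart and point away from a shared interval, so that 37281 bp belong to both windows, 36.3% of the Cebpa window and 33.8% of the Cebpg window. Cebpb is at chr2:167688915-167690418 (plus), Cebpd at chr16:15887286-15891031 (plus) and Cebpe at chr14:54710360-54712174 (minus). All windows but that of Cebpa also hold parts of other protein-coding genes: Tmem189 and Gm20431 with Cebpb, Prkdc, Mzt2 and Spidr with Cebpd, Slc7a8, 1700123O20Rik, Gm29776 and Acin1 with Cebpe, and Pepd with Cebpg. A hotspot was counted by position, and the gene it acts on was not measured.

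The sequences below, written 5′ to 3′, show the starts whose hotspots are compared further on and examples of regions that differ between tissues. Capitals mark matches, on either strand, to a motif of the C/EBP family written TTGCNNAA, the AP-1 motif written TGANTCA, the HNF1 core written GTTAAT, the PU.1 motif written GAGGAAGT, the CCAAT box, the GC box written GGGCGG, and the TATA box written TATAAA. Promoters are RefSeq windows on GRCm38.p6 of 300 bases, from 250 before to 50 after the start, on the strand of the gene, and 3 of the 5 members had an entry. The Cebpa promoter, chr7:35119043-35119342, lies inside the antisense transcript Gm45091 but in none of its exons, and the Cebpb promoter, chr2:167688665-167688964, lies in an intron of Tmem189 on the opposite strand. The Cebpg promoter is chr7:35056517-35056816.
Cebpa promoter: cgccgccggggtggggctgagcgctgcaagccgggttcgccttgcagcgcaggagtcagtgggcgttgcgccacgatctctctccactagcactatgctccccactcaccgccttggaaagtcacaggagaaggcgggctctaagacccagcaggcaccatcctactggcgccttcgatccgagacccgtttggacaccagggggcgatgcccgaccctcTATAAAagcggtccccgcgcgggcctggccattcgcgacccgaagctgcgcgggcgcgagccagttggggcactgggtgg
Cebpb promoter: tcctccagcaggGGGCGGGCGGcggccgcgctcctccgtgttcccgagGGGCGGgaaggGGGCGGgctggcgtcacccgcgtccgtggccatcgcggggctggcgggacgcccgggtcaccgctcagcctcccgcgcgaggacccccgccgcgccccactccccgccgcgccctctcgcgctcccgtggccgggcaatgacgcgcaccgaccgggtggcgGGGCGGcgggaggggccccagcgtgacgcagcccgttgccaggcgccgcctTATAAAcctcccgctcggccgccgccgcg
Cebpg promoter: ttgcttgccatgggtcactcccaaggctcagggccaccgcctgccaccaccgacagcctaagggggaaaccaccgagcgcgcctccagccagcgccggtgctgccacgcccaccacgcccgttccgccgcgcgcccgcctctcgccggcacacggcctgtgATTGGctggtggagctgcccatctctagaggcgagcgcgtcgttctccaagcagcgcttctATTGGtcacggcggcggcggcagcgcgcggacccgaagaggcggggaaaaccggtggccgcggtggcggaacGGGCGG

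The promoters differed in base composition and in the elements found. GC content was 67.3% for Cebpa, 80.7% for Cebpb and 71.7% for Cebpg. The Cebpa window had a TATA box 30 bases before the start and no GC box. The Cebpb window had 5 GC boxes, at −238, −234, −202, −191 and −30, and a TATA box match at 22 bases after the start. The Cebpg window had 2 CCAAT boxes, at −89 and −28, and 1 GC box at 45. Of 32851 RefSeq promoters of this length, 35.7% hold the GC box, 37.4% the CCAAT box, 13.6% the TATA box and 10.8% the C/EBP motif, which none of these 3 windows held.

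Regions were made by merging overlapping hotspots of the 20 adult sets, and one was called confined to a tissue when all 5 sets of that tissue and no other adult set had a hotspot there. Shown are the central 300 bases of the narrowest confined region of at least 300 bp at Cebpa (liver), Cebpb (kidney) and Cebpd (lung), and of a region 37.3 kb downstream of the Cebpa start. Known C/EBP biology places an enhancer of myeloid progenitors at about this distance. The plus strand of GRCm38 is given. The Cebpa regions, chr7:35108633-35108932 and chr7:35156466-35156765, overlap no annotated gene. The Cebpb region, chr2:167662729-167663028, lies in an intron of Tmem189 and has 52 bases in an exon of the noncoding Gm14320, and the Cebpd region, chr16:15920219-15920518, lies in an intron of Spidr.
Cebpa, liver: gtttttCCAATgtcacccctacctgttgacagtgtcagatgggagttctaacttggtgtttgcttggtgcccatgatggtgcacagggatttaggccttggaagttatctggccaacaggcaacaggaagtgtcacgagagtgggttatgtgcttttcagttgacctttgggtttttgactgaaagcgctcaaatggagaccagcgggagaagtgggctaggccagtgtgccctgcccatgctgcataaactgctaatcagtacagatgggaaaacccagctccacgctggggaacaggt
Cebpb, kidney: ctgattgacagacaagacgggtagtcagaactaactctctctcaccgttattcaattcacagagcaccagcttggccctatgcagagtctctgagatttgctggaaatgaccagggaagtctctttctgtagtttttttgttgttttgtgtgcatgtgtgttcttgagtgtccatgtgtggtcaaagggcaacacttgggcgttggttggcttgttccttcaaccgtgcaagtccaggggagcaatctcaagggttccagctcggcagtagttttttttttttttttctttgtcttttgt
Cebpd, lung: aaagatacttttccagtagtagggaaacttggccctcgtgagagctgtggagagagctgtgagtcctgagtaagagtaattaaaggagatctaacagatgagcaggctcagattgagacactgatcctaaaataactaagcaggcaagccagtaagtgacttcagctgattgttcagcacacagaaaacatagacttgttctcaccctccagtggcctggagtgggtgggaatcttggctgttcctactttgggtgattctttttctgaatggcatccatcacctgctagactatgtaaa
Cebpa, downstream: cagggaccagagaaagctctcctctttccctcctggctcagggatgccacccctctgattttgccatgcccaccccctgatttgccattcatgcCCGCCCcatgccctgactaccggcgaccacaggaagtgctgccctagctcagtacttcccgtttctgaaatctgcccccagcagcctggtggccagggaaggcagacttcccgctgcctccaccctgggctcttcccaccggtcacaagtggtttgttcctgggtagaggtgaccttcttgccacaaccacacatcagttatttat

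The Cebpa liver region held a CCAAT box match at base 7 and the downstream region a GC box match at base 95. The other 2 regions held no match to any of the 7 motifs, and none of the 4 held TTGCNNAA. Among 273960 merged regions of at least 300 bp, the central 300 bases held TTGCNNAA in 16.1%, TGANTCA in 11.7%, GTTAAT in 11.2%, GAGGAAGT in 4.01%, CCAAT in 33.8% and GGGCGG in 8.74%. The absence of these letters from a window says nothing about binding of the factor.

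The size of the sets differed between tissues. Liver sets held 211762 to 295565 hotspots, kidney sets 186061 to 238917, lung sets 152006 to 281978 and B cell sets 78387 to 156078, and the mESC set held 115267. The tissues carried their own markers: start hotspots were present in every set of the tissue for 5 of 5 hepatocyte markers in liver, 4 of 5 tubule markers in kidney, 5 of 5 epithelial markers in lung and 6 of 6 B cell markers in B cells. Of other markers, 3 of 3 endothelial genes had one in every lung set, 0 of 3 T cell genes in every set of any adult tissue, and 3 of 4 stem cell genes in the mESC set. In whole organs, a change in a cell type's share of the tissue and a change within its cells cannot be told apart.

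Cebpa was the member with the largest differences between tissues. Taking the hybrids in the order B6x129, B6xC3H, B6xCAST, B6xPWK, B6xSPRET, its liver window was covered over 33919, 32611, 26677, 28225 and 23837 bp. Kidney sets covered 12342, 11016, 10660, 11874 and 9697 bp in the same order. Every liver set was thus above every kidney set, and lung, at 14832, 7245, 16431, 10736 and 8201 bp, overlapped with kidney. B cell sets were lowest, at 3136, 1283, 4764, 3386 and 2025 bp, without overlap with any other tissue, and the mESC set covered 3812 bp. These bp are not scaled to set size, and the share of all genes whose sets separate like this is not given. In the tissue comparison below, run without scaling, 11856 of 21525 genes were higher in liver and 12650 lower in B cells. Hotspots numbered 28 to 49 in liver, 23 to 29 in kidney, 23 to 39 in lung and 5 to 13 in B cells.

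The liver window of Cebpa was among the most covered in the genome. On average 28.3% of it lay in hotspots, against a median of 6.25% over all genes, and only 0.363% of genes (79) had a higher share. In B cells the share was 2.84%, below the median of 3.59%, and 57.9% of genes were higher. Cebpb ranked high in each tissue, with 20.1% of its window covered in liver, 13.2% in lung, 12.6% in kidney and 9.30% in B cells, where 2.74%, 2.34%, 4.90% and 8.96% of genes were higher. Cebpd covered 4.44% to 7.80%, Cebpe 4.50% to 8.98% and Cebpg 3.17% to 9.88% of their windows, nearer to the middle of all genes.

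**Figure D1:**
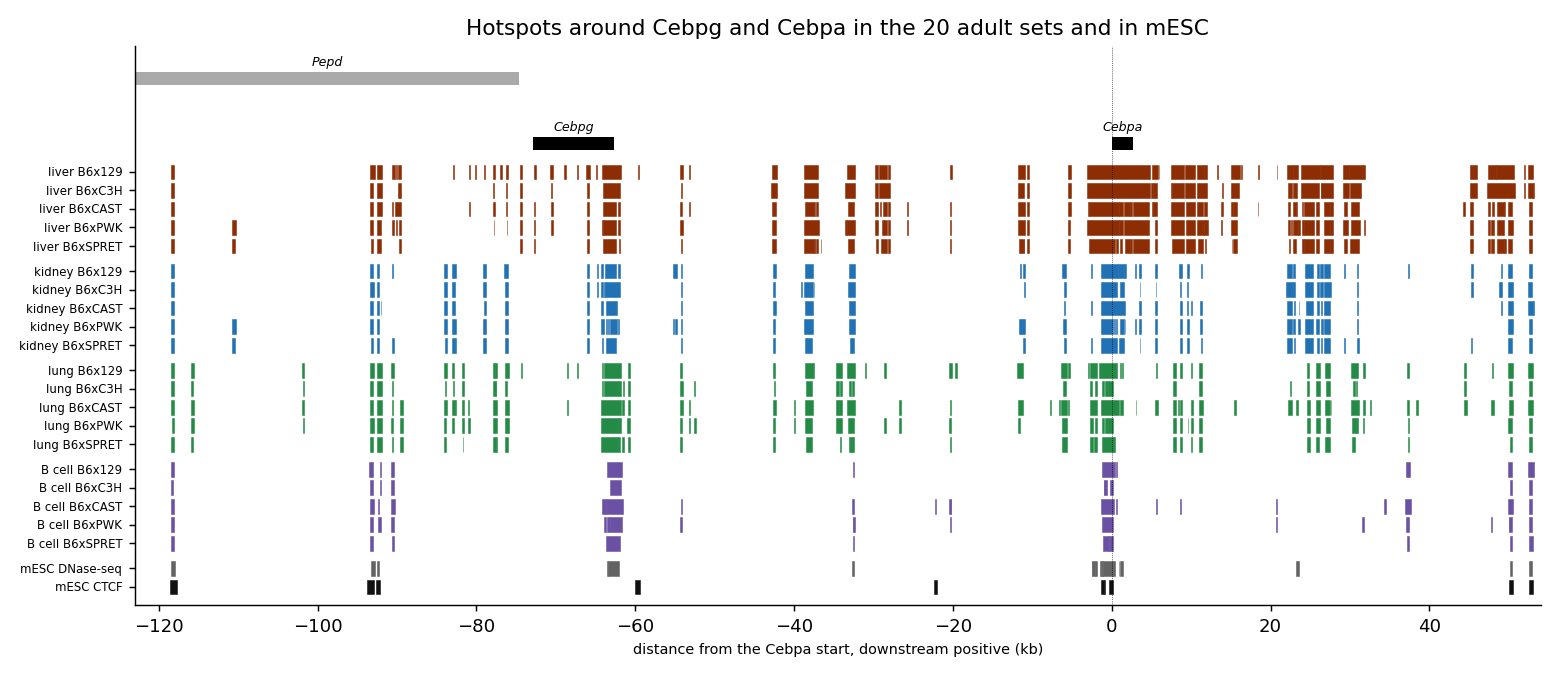
Hotspots of each adult set and of the mESC DNase-seq and CTCF sets around Cebpa and Cebpg, 1 row per set, against distance from the gene start in kb, with black bars for the members and grey bars for other protein-coding genes. Around Cebpa the 5 liver rows hold 28 to 49 hotspots each and the 5 B cell rows 5 to 13.

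To compare tissues, covered bp were divided by the Mb of hotspots in the set, which adjusts for set size. A window with even cover in all sets then has higher scaled values in the smaller sets. On this scale Cebpa had 263, 331, 315, 305 and 304 bp per Mb in the liver sets of B6x129, B6xC3H, B6xCAST, B6xPWK and B6xSPRET. Kidney had 142 ± 11.1 (SD, n = 5) and lung 167 ± 14.1, with overlapping ranges. B cells had 57.2, 44.3, 69.3, 61.9 and 57.1. Cebpg, its neighbour, had 157 ± 30.2 in lung, 113 ± 6.34 in liver, 93.8 ± 9.36 in kidney and 73.1 ± 8.23 in B cells (SD, n = 5 each). Lung had the highest mean and the widest spread of Cebpg, and B cells had the lowest mean.

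Cebpb was more even, with 212 ± 9.91 bp per Mb in liver, 195 ± 7.88 in B cells, 185 ± 45.2 in lung and 163 ± 7.07 in kidney. Its unscaled lung coverage ran from 6753 bp in B6xC3H to 23509 bp in B6xCAST while liver ran from 15965 to 25754 bp, kidney from 10155 to 14660 bp and B cells from 5935 to 13722 bp. Cebpd had 128 ± 40.05 in lung, 98.4 ± 16.7 in B cells, 82.5 ± 8.20 in kidney and 81.6 ± 8.16 in liver. The lung values of Cebpd were 90.6, 177, 87.6, 125 and 159 in B6x129, B6xC3H, B6xCAST, B6xPWK and B6xSPRET, where the unscaled cover was 7633, 7759, 8504, 7489 and 9100 bp. The unscaled cover was thus even across the 5 hybrids, and the scaled values were highest in the 2 sets with the fewest hotspot Mb. Cebpe had 117 ± 6.97 in kidney, 92.9 ± 7.57 in liver, 105 ± 14.6 in lung and 97.3 ± 13.1 in B cells (SD, n = 5 each).

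**Figure D2:**
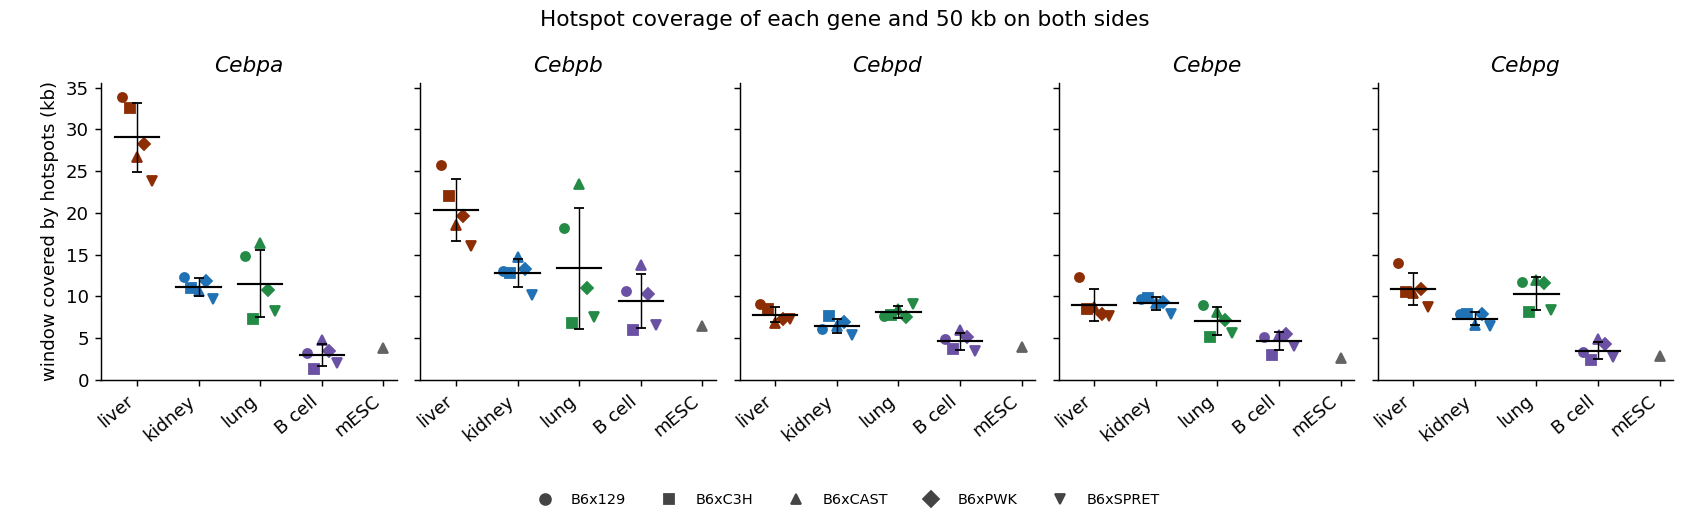
Part of each window covered by hotspots in kb, not scaled to set size, by tissue, with 1 point per hybrid. A line marks the mean, bars show 1 SD (n = 5), and the mESC set has a single point. Cebpa liver points lie between 23837 and 33919 bp and B cell points between 1283 and 4764 bp, without overlap with each other or with kidney and lung.

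Each tissue was compared with the mean of the other 3 in 1 limma fit over 21525 genes with hybrid as a covariate, on log2(bp per Mb + 4). All 5 members passed the filter of a hotspot in at least 5 sets. Because most genes moved a little, the median difference of all genes is given for each tissue. P-values here rest on the spread left between sets after tissue and hybrid were fitted, moderated over genes. They are Benjamini-Hochberg adjusted over all genes.

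In liver, Cebpa was 2.67-fold higher than the mean of the other tissues (log2 1.41 ± 0.08 SE, adjusted p = 1.53e-12), against a median of −0.08 over all genes. Cebpb was also higher (0.24 ± 0.09, adjusted p = 0.0189), and Cebpd was lower (−0.28 ± 0.09, adjusted p = 0.00993). Cebpe (−0.18, adjusted p = 0.0619) and Cebpg (0.14, adjusted p = 0.146) did not pass the threshold of 0.05. Thus 2 of 5 members were higher and 1 was lower, where 27.5% of all genes were higher and 37.2% lower. The call for Cebpa held in each of 16 alternative settings (0.60 to 2.03), that of Cebpb in 12 and that of Cebpd in 13. Without B6xC3H only Cebpa passed (adjusted p = 0.0716 for Cebpb and 0.0732 for Cebpd), and without B6xPWK Cebpb did not (adjusted p = 0.0666).

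In B cells, Cebpa was 3.21-fold lower (log2 −1.68 ± 0.08 SE, adjusted p = 2.73e-14) and Cebpg 1.59-fold lower (−0.67 ± 0.09, adjusted p = 2.33e-07), while the median of all genes was 0.14. Cebpb (0.08, adjusted p = 0.411), Cebpd (0.05, adjusted p = 0.608) and Cebpe (−0.11, adjusted p = 0.260) did not pass. No member was higher, where 45.2% of genes were, and 2 were lower, where 28.3% of genes were. Cebpa held in 16 of 16 alternatives (−2.42 to −0.93). Cebpg held in 15 and was lost with 10 kb on each side (−0.21, adjusted p = 0.139), and 33.8% of its wider window is also that of Cebpa. With each gene's window ending halfway between the pair, Cebpg remained lower (−0.61, adjusted p = 9.97e-07).

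In lung, Cebpg was 1.66-fold higher (log2 0.73 ± 0.09 SE, adjusted p = 2.75e-07), Cebpd was higher (0.49 ± 0.09, adjusted p = 0.000116) and Cebpa was higher (0.28 ± 0.08, adjusted p = 0.00831), against a median of −0.05. Cebpb (−0.06, adjusted p = 0.591) and Cebpe (0.04, adjusted p = 0.735) did not pass. These are 3 of 5 members higher and 0 lower by limma, where 22.3% of genes were higher and 27.9% lower. Cebpg passed in 16 of 16 alternatives. Cebpd passed in 15 and missed on the number of hotspots (adjusted p = 0.0565), and Cebpa passed in 13. The Cebpa difference fell to 0.08 (adjusted p = 0.412) when its window ended halfway to Cebpg, and to 0.17 (adjusted p = 0.166) with 10 kb on each side.

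Kidney differences were small. Cebpe was higher (0.25 ± 0.08 SE, adjusted p = 0.0145), and Cebpb (−0.26, adjusted p = 0.0138), Cebpd (−0.26, adjusted p = 0.0186) and Cebpg (−0.21, adjusted p = 0.0434) were lower, against a median of −0.07. Cebpa was at −0.01 (adjusted p = 0.909). With 1 member higher and 3 lower, the background was 23.5% and 32.1% of genes. The Cebpd call held in 9 of 16 alternatives and that of Cebpg in 4. The Cebpe call held in 13, and its value turned to −0.16 (adjusted p = 0.184) with 10 kb on each side. Without B6xPWK, 0 of the 3 lower calls passed in limma, without B6xSPRET 1 did, and without B6x129 Cebpe did not pass.

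The scaling set the direction of 7 of the smaller differences. Without division by set size, the median difference of all genes moved to 0.47 in liver, 0.14 in kidney, −0.53 in B cells and −0.13 in lung. The numbers of genes higher and lower moved from 5926 and 7999 to 11856 and 959 in liver, and from 9719 and 6094 to 1227 and 12650 in B cells. All 5 members were then lower in B cells, of which Cebpb, at −0.67, and Cebpd, at −0.68, lay close to the median, and in liver 4 members were higher. Cebpa in liver (2.03) and in B cells (−2.42) and Cebpg in lung (0.64) remained far from the medians.

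**Figure D3:**
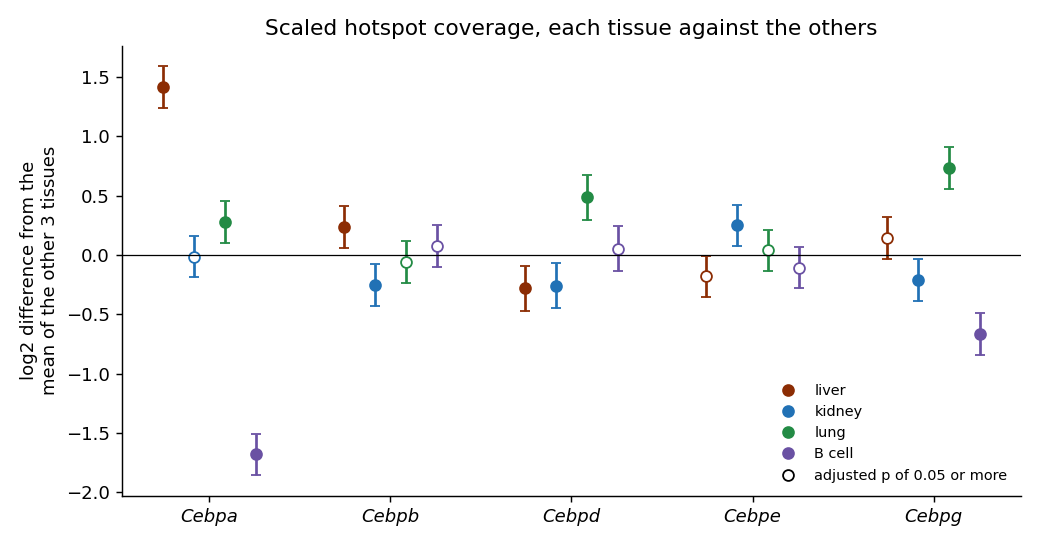
Log2 difference in scaled hotspot coverage of each member, each tissue against the mean of the other 3, with 95% confidence intervals from the limma fit and open points where the adjusted p is 0.05 or above. Cebpa lies at 1.41 in liver and −1.68 in B cells, and all other points lie between −0.67 and 0.73.

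A hotspot within 500 bp of the start was present in all 20 adult sets and in mESC for Cebpa, Cebpb, Cebpd and Cebpg. Over all genes, 46.5% had one in all 20 sets and 21.1% in none. Cebpe had one in 3 adult sets, all of lung: B6x129 (124 bp, −log10 FDR 1.92), B6xCAST (434 bp in all, up to 2.84) and B6xSPRET (115 bp, 2.24). These are weak hotspots, since the scale ends at 100 and the call began at an FDR of 5%. Just beyond the 500 bp limit, a region of 518 bp centred 0.9 kb upstream of Cebpe held a hotspot in 3 liver sets and in all 5 kidney, lung and B cell sets. A further region at 2.4 kb upstream held one in all 20 sets and in mESC, so that within 2 kb Cebpe was counted in 20 of 20.

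The start hotspot of Cebpa was unusually wide in liver. It measured 7879 and 7906 bp in B6x129 and B6xC3H, and 3811, 3952 and 3325 bp in B6xCAST, B6xPWK and B6xSPRET, with −log10 FDR at the ceiling of 100 in all 5. Only 0.383% to 0.854% of genes with a start hotspot had a wider one. In B cells it measured 458 to 1680 bp and 36.2% to 82.9% of genes were wider. Kidney (1637 to 3031 bp) and lung (629 to 2313 bp) lay between, and mESC had 1449 bp.

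Cebpb was also widest in liver, at 3962 and 3982 bp in B6x129 and B6xC3H and 1867 to 2810 bp in the others, and measured 800 to 1082 bp in kidney. The kidney range fell below that of liver without overlap, and the share of all genes with such a gap is not given. Over all genes the median start hotspot was 1021 to 1558 bp in liver sets and 939 to 1203 bp in kidney sets. Cebpd had 1764 to 3157 bp in liver and 1814 to 3021 bp in kidney, and 1855 to 1996 bp in 4 lung sets, with 4823 bp in that of B6xSPRET. Cebpg had 1580 to 2382 bp in liver, 862 to 1811 bp in kidney, 1753 to 2464 bp in lung and 1310 to 2104 bp in B cells. In liver, B6x129 and B6xC3H had the 2 widest start hotspots of Cebpa, Cebpb, Cebpd and Cebpg alike, and over all genes too the median start hotspot was wider in these 2 sets (1558 and 1441 bp) than in the other 3 (1021 to 1044 bp).

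**Figure D4:**
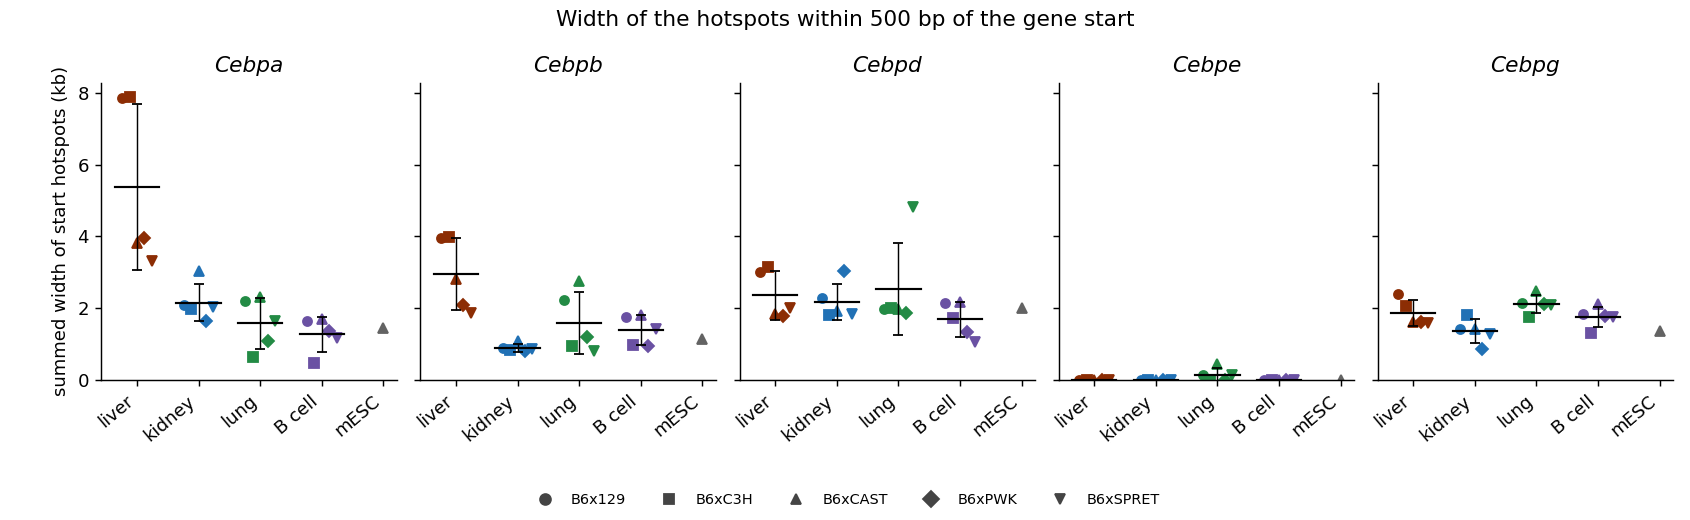
Summed width in kb of the hotspots within 500 bp of each start, by tissue, with 1 point per hybrid, a line at the mean and bars of 1 SD (n = 5), and a single point for the mESC set. The Cebpa liver points lie from 3325 to 7906 bp, and Cebpe has points above 0 only in 3 lung sets.

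The windows held 216 regions after merging, with 48 at Cebpa, 62 at Cebpb, 31 at Cebpd, 43 at Cebpe and 47 at Cebpg, where the shared interval counts for both. Of the 48 Cebpa regions, 22 held a hotspot in all 5 liver sets, 14 in all 5 kidney sets, 13 in all 5 lung sets and 3 in all 5 B cell sets. Cebpb had 22, 20, 13 and 11 such regions, and the order of its tissues was the same. These counts are not scaled to set size, which ran from 211762 to 295565 hotspots in liver and from 78387 to 156078 in B cells. The share of all merged regions is not given for them, so the order is not read as particular to these genes. Over all members, 52 of the 216 regions rested on a hotspot in 1 set, against 42.2% of the 745754 merged regions of the genome.

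Few regions were confined to 1 tissue. Over the 5 windows, 5 were confined to liver (3.03% of all merged regions), 5 to kidney (1.99%), 7 to lung (1.47%) and 0 to B cells (0.334%). Cebpa had 2 liver regions, at 29.6 and 10.5 kb upstream, of which the latter is the one printed above (−log10 FDR 5.05 to 13.6). Cebpb had 4 of the kidney regions, at 26.0, 22.5 and 20.3 kb upstream and 15.7 kb downstream, and the first of these is printed above (8.46 to 18.5). Cebpd had 3 of the lung regions, at 10.7, 33.1 and 45.3 kb downstream inside Spidr, and the second is printed above (2.94 to 9.33). Cebpg had 4 lung regions, of which 1 lies in the interval shared with Cebpa.

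A further 6 regions had hotspots in all 15 liver, kidney and lung sets and in no B cell set (1.14% of all merged regions), 4 of them at Cebpa, centred 42.5 and 37.8 kb upstream and 25.1 and 27.1 kb downstream. The 2 upstream ones also lie in the Cebpg window. Regions in all 20 sets numbered 24 (3.77%), of which 3 were at Cebpa, 9 at Cebpb, 4 at Cebpd, 5 at Cebpe and 3 at Cebpg. In mESC, 22 of these 24 had a DNase-seq hotspot and 20 a CTCF hotspot, and of the other 192 regions 7 and 9 did. Over the genome the shares were 89.0% and 67.2% of regions in all 20 sets and 6.19% and 5.57% of the rest.

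The region 37.3 kb downstream of Cebpa (668 bp) had no liver hotspot. It was present in 4 lung sets (−log10 FDR 1.70 to 13.1) and 4 B cell sets (5.85 to 32.1), each time all but B6xC3H, and in the kidney set of B6x129 (1.74). B cells, the tissue with the lowest Cebpa coverage, thus had this hotspot in most hybrids. Myeloid cells are the other major marrow population, and the CD11b depletion was directed at them. Of 10 myeloid markers, Itgam, which encodes CD11b, had a start hotspot in all 5 B cell sets, Csf3r in 4, Adgre1 in 3 and S100a8 in 1, and Mpo, Elane, Ltf, Camp, Csf1r and Ly6g had one in none. Their summed coverage within 2 kb of the starts ran from 16.5 to 65.8 bp per Mb in B cells, 39.7 to 48.3 in lung, 32.6 to 50.4 in liver and 8.06 to 21.04 in kidney. The part of such cells in this hotspot was not tested.

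**Figure D5:**
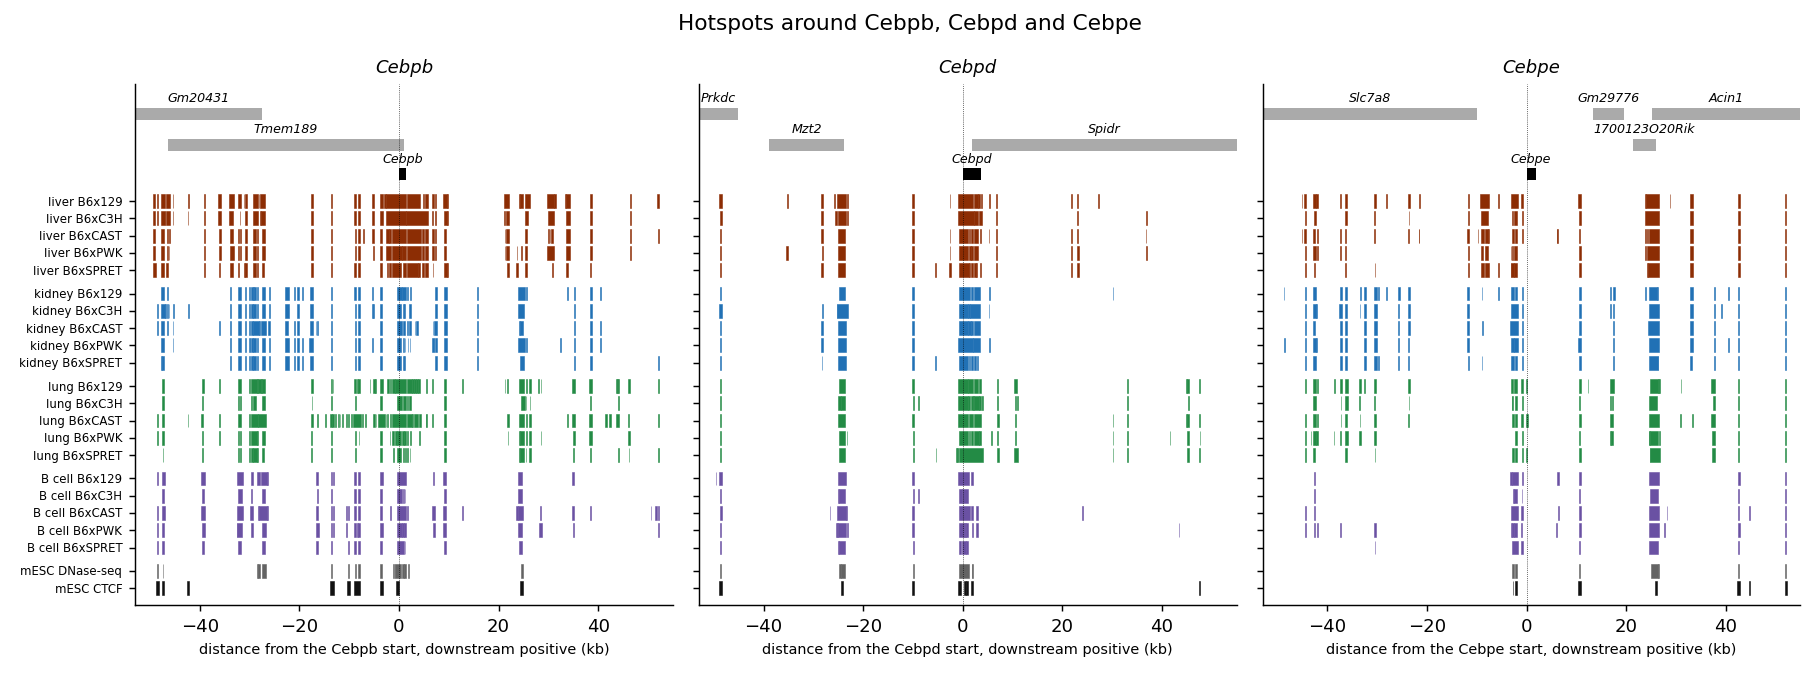
Hotspots of each adult set and of the mESC DNase-seq and CTCF sets around Cebpb, Cebpd and Cebpe, 1 row per set, against distance from the gene start in kb, with black bars for the members and grey bars for other protein-coding genes. Liver rows show a broad block at Cebpb, kidney rows a cluster of 3 regions 20.3 to 26.0 kb upstream of it, and of the adult rows only 3 lung rows cover the Cebpe start.

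Each hybrid was compared with the mean of the other 4 in the same limma fit, and 0 of 5 members passed in B6x129 (0.0232% of all genes passed), B6xC3H (0.0232%), B6xCAST (0.0697%), B6xPWK (0.195%) or B6xSPRET (0.325%). The largest difference was that of Cebpd in B6xC3H (log2 0.36 ± 0.10 SE, unadjusted p = 0.0012, adjusted p = 0.154). It was 0.007 without scaling by set size, and B6xC3H had the smallest lung and B cell sets.

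Across the 20 sets, the profile of Cebpa was most like those of Serpina10 (Pearson r = 0.99), Naaladl2 (0.98) and Serpina6 (0.98), of which Serpina6 encodes corticosteroid-binding globulin, a plasma protein made in liver. Cebpg was most like Scnn1g (0.96), a subunit of the epithelial sodium channel, Gm5108 (0.91) and Emp2 (0.90). Cebpd was nearest to Zfp266 (0.87), Srrm3 (0.86) and Ccp110 (0.86), Cebpe to Prss8 (0.83), Prss36 (0.82) and Dctn1 (0.82), and Cebpb to Tlr9 (0.82), Cdk5rap2 (0.81) and Gnat1 (0.81). Among members, Cebpa and Cebpg, which share part of their windows, had r = 0.62, and Cebpb and Cebpe had −0.61. These values describe 20 sets that share tissues and hybrids. Serpina10 and Serpina6 both lie on chromosome 12, and Prss8 and Prss36 on chromosome 7. Listed genes were not checked for overlap of their windows with each other, so they may not be separate loci.

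Genes around the family were read on the same scale. Of 17 partners and regulators of C/EBP proteins, 9 were higher and 4 lower in liver (27.5% and 37.2% of all genes; median 0.20 against −0.08) and 2 and 9 in kidney (23.5% and 32.1%; −0.26 against −0.07). In lung 2 were higher and 3 lower (22.3% and 27.9%; −0.08 against −0.05), and in B cells 9 and 4, near the 45.2% and 28.3% of all genes (0.34 against 0.14). Hlf, a related leucine zipper factor of the circadian PAR family, was higher in liver (1.18 ± 0.12 SE, adjusted p = 1.59e-08 by limma) and lower in B cells (−1.94). Pparg, the adipogenic nuclear receptor induced by C/EBPβ and C/EBPδ, was higher in liver (1.19) and lung (1.10) and lower in B cells (−2.36). Gfi1, a zinc finger repressor of blood cells, was higher in B cells (1.81), and Trib2, a pseudokinase that promotes C/EBPα degradation, was lower in liver (−1.06).

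Liver targets had the largest shift of the lists. All 16 of the liver targets were higher in liver, against 27.5% of all genes (median 1.98, against −0.08). Serpina1a (4.38), Cps1 (3.62), Alb (3.01) and Crp (2.72) led. This list holds the 5 hepatocyte markers used above, and whether its shift differs from that of other liver genes was not tested. In B cells 12 of the 16 were lower and 1 was higher (28.3% and 45.2% of all genes), and in lung 10 were lower (27.9%). Of the 8 lung targets, 6 were higher in lung (median 0.64), with the surfactant protein genes Sftpd at 2.06 and Sftpa1 at 1.24, against 22.3% of all genes, and 6 were also higher in liver (0.59), against 27.5%, where Sftpa1 was at 3.08 and Sftpd at 2.28. Of the 16 myeloid targets, 8 were higher and 3 lower in B cells, near the 45.2% and 28.3% of all genes (median 0.24, against 0.14). The granule protein genes Mpo (2.01) and Ngp (0.85) were higher, though neither had a start hotspot in any B cell set. Lyz2 (−0.58) and Ctsg (−0.56) were lower. These windows may hold elements of neighbouring genes.

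The RNA-seq tables held 283725 to 809337 expected counts per sample in all. The kit preserved strand, and Tsix exceeded its opposite-strand partner Xist in 17 of 17 samples (27120 against 1662 counts in all), so that counts listed for a gene may come from the opposite strand and are not read as its expression. Spidr, opposite 562 of the 3746 exon bp of Cebpd, had 21 to 40 counts in lung and 0 to 5 elsewhere, and Tmem189, opposite 20.7% of the Cebpb exons, had 0 to 7. The antisense genes at Cebpa and Cebpg had 0 to 1, and Cebpe has no gene opposite its exons.

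Counts listed for Cebpa were 48, 31, 13 and 32 in liver, 8, 8, 10 and 12 in kidney, 9, 13, 8 and 17 in lung, and 0, 0, 2, 2 and 0 in B cells. The B cell counts lay below every other sample, and in CPM of the sample's total the liver samples (45.8 to 152) lay above those of lung (20.8 to 43.9) as well. Counts for Cebpd were 133, 221, 138 and 205 in kidney, 30, 50, 65 and 48 in lung, 57, 27, 32, 86 and 32 in B cells and 10, 8, 5 and 9 in liver. Counts for Cebpg were 41, 50, 39 and 75 in kidney, 24, 21, 32 and 30 in lung, 18, 14, 10, 13 and 6 in B cells and 0, 4, 0 and 7 in liver. In CPM, the kidney samples of Cebpd (258 to 506) lay above all others, while those of Cebpg (79.4 to 136) overlapped with lung (54.8 to 83.3). Cebpb had at most 23 counts in a sample, in lung, and Cebpe had 0 in 16 samples and 1 count in 1 B cell sample.

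By edgeR's quasi-likelihood test over 4479 genes, in which 4 of 5 members could be tested, Cebpa was higher in liver (log2 4.37 ± 0.33 SE, adjusted p = 4.33e-12) and lower in B cells (adjusted p = 1.38e-09), and the near absence of B cell counts enters the size of the liver value. Cebpd (2.68, adjusted p = 1.47e-10) and Cebpg (2.33, adjusted p = 1.44e-06) were higher in kidney. Their kidney hotspot coverage was lower by limma, in calls that held in 9 and 4 of 16 alternatives. Because the counts may come from the opposite strand, the 2 measures are not read against each other. In liver, 2 members were higher and 2 lower, where 21.8% and 21.7% of genes were. In kidney 2 were higher and 0 lower by edgeR (23.5% and 9.56% of genes), in lung 1 and 0 (29.5% and 16.5%), and in B cells 0 and 4 (32.8% and 30%). The lung call was Cebpb (1.12, adjusted p = 0.0178), and Cebpb was higher in liver (1.48, adjusted p = 0.00874) as well. The liver call of Cebpb was lost without the B6xPWK liver sample (adjusted p = 0.229 by edgeR) and the lung call without a B6xSPRET lung sample (adjusted p = 0.0984).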

How the data were processed

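DNase-seq had been processed by the authors, who trimmed reads, aligned them with BWA to mm10 and to a genome of the paternal strain, pooled the libraries of each hybrid and tissue, and ran hotspot2 on the pool, keeping hotspots with an FDR under 5%. The deposited hotspot files give positions and the −log10 FDR, which ends at 100, and no read counts, so that depth at a single hotspot is unknown. The paper lists the analyzed reads of each pool, which differ between sets, and they were not used here. The deposited RNA-seq tables give, per gene, the expected count and the TPM made by the authors with STAR and RSEM. Gene positions were from GENCODE vM21, which gave a symbol to 53620 of 53715 rows.

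Covered bp within each gene body and 50 kb on each side were scaled to the Mb of hotspots in the set and tested with limma 3.58.1 in R 4.3.3 (trend and robust settings, pseudocount 4 bp per Mb, hybrid and tissue as factors) for genes with a hotspot in at least 5 sets. Rounded expected counts went into edgeR 4.0.16 (quasi-likelihood test, TMM, filterByExpr), with DESeq2 1.42.0 and limma on log2(TPM + 1) as alternatives. Labels give no donors for the RNA-seq samples, so p-values there measure the spread between samples. A B cell RNA-seq sample is listed under another strain in the study's sample table, and the tests used only its tissue, except the fit with a hybrid term named in the closing section. The limma coverage fit and the edgeR count fit were tested on simulated data with known liver differences.

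Named were the 5 members, for each the 3 genes with the highest correlation outside its window, and up to 4 genes of each list with the largest absolute difference past the threshold, of which the text gives some. The members and lists were chosen with earlier results of these data known. Alternatives were no scaling, pseudocounts of 1 and 16, FDR 1%, the 75000 highest hotspots of each set, windows of 10 and 100 kb, no filter, hotspot number, no hybrid term, other start and merging rules, and leaving out each hybrid or sample.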

Additional observations from a re-analysis of the deposited data

Results flagged for a closer look

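In 6 of 80 groups of values checked, 1 sample stood apart from the rest by Dixon's criterion, which chance meets in about 1 of 20 groups. The Cebpd window in the B cell set of B6xC3H had 127 bp per Mb, against 86.5 to 96.2 in the other 4 hybrids. The Cebpe window in the liver set of B6x129 was covered over 12303 bp, against 7578 to 8661, and in the kidney set of B6xSPRET over 7821 bp, against 9193 to 9731. The start hotspot of Cebpd in the lung set of B6xSPRET measured 4823 bp, against 1855 to 1996. Start hotspots of Cebpe in the lung set of B6xCAST summed to 434 bp, against 0 to 124. Cebpe had 1 expected count in 1 of the 5 B cell RNA-seq samples, against 0 in the other 4, and this is the sample whose strain differs between the label and the study's table.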

How the results depend on the processing

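Cebpa in liver and B cells and Cebpg in lung kept their direction and their call in all 16 alternatives to the coverage fit. Cebpd in lung and Cebpg in B cells kept their direction in 16 and their call in 15, and Cebpa in lung its direction in 16 and its call in 13. The cause was not tested. With 10 kb on each side, members lower in liver went from 1 to 2, higher in kidney from 1 to 0, lower in lung from 0 to 1, higher in B cells from 0 to 1 and lower from 2 to 1, and the sign turned for Cebpe in liver (0.069), kidney (−0.16), lung (−0.52) and B cells (0.61), Cebpg in liver (−0.37), Cebpb in lung (0.020) and Cebpd in B cells (−0.23). With 100 kb, members lower in liver were 2, lower in kidney 1 and higher in B cells 2, and the sign turned for Cebpd in kidney (0.076) and B cells (−0.040), Cebpb in lung (0.14) and Cebpe in B cells (0.23). With the 75000 highest hotspots, 1 was lower in kidney and 4 in B cells, and the sign turned for Cebpa in kidney (0.046), Cebpe in lung (−0.0059), and Cebpb (−0.011) and Cebpd (−0.25) in B cells. Without scaling, 4 were higher and 0 lower in liver, 0 lower in kidney and 5 lower in B cells, and the sign turned for Cebpd (0.32) and Cebpe (0.42) in liver, Cebpa (0.21) and Cebpg (0.016) in kidney, Cebpe in lung (−0.051), and Cebpb (−0.67) and Cebpd (−0.68) in B cells. By number of hotspots, 1 was higher and 0 lower in liver, 0 higher and 1 lower in kidney and 1 higher in B cells, and the sign turned for Cebpb (−0.12) and Cebpd (0.046) in liver and Cebpb in lung (0.024). Without the hybrid term 1 was lower in kidney, and with windows ending halfway Cebpg in liver was −0.050. Within 2 kb, 20 sets had a Cebpe start hotspot. Regions confined to B cells were 1 at FDR 1%, and those confined to liver 9 with 4 of 5 sets as the rule.

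Leaving out each hybrid gave 1 to 2 members higher in liver (1 without B6xC3H or B6xPWK), 0 to 2 lower in liver (0 without B6xC3H and 2 without B6xCAST), 0 to 1 higher in kidney (0 without B6x129) and 0 to 3 lower in kidney (0 without B6xPWK and 1 without B6xSPRET). Cebpa in kidney ran from −0.055 to 0.055, Cebpb in lung from −0.15 to 0.044 and Cebpe in lung from −0.022 to 0.093, and regions confined to liver from 5 to 11 (11 without B6xC3H) and to B cells from 0 to 1 (1 without B6xCAST). In RNA-seq, leaving out samples gave 1 to 2 members higher and 1 to 2 lower in liver (1 and 1 without the B6xPWK liver sample) and 0 to 2 higher in lung (0 without a B6xSPRET lung sample and 2 without the B6xC3H liver sample), and Cebpa in lung from −0.032 to 0.45. With limma on TPM, 1 was higher in liver, 2 in lung and 1 lower in B cells, with Cebpb in liver at −0.11 and Cebpd in lung at 0.41, and without a filter 1 was higher in liver.

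Over all genes, no scaling moved calls in kidney (lower) from 6903 to 1379, in lung (higher) from 4792 to 2232 and between hybrids from 137 to 269. Hotspot number gave 5270 lower in liver, 3096 higher in lung and 56 between hybrids, which were 68 with the 75000 highest, 81 with 10 kb and 79 without B6xSPRET. In RNA-seq, no filter gave 1690 higher and 1550 lower in liver (978 and 972), 2411 higher in kidney (1051), 3888 higher and 488 lower in lung (1321 and 740) and 3175 higher and 2191 lower in B cells (1467 and 1345). Limma on TPM gave 367 and 3161 in liver, 698 and 946 in kidney, and 2103 and 344 in lung, and DESeq2 gave 680 lower in kidney (428). The hybrid was a factor in the coverage fit. Adding it to the RNA-seq fit, an alternative chosen after seeing the data, changed the call of none of the 4 members in any tissue by edgeR, and it removes the only sample labelled B6xCAST from the tissue estimates.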
